A study of Mus musculus with 12 samples.

Results

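Coagulation and complement genes encode the plasma proteins that clot blood, dissolve clots and mark microbes for destruction. A list of 39 such names was matched to the gene names in the deposited tables, and 38 of them were found among 48440 genes. The remaining name, Klkb1 (plasma prekallikrein), occurred only with a numbered suffix on 2 rows, which are given separately below and not counted. The 38 genes were grouped by role: 4 of the contact and intrinsic pathway, 5 of the extrinsic and common pathway, 5 anticoagulants, 4 of fibrinolysis and adhesion, 7 of the classical complement pathway, 4 of the lectin pathway, 3 around C3 and the alternative pathway, and 6 of the terminal pathway.

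Hepatocytes secrete most of these proteins. Clotting proceeds through serine proteases that activate one another until thrombin cuts fibrinogen, and is limited by serpins and the protein C system. Plasmin dissolves fibrin and is itself held back by α2-antiplasmin. Complement starts from antibody-bound C1, from mannose-binding lectins or from spontaneous C3 turnover, and all routes meet at C3 and end in the membrane attack complex of C5 to C9.

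Poly(A) RNA was sequenced from livers of untreated males of the C57BL/6 strain, 8 weeks of age, kept in a cycle of 12 h light and 12 h dark with free access to chow. Wild-type mice (WT) were compared with transgenic mice that overexpress E4BP4 in the liver (TG), each at ZT2 and at ZT14, ZT being the time in hours after the lights came on. Each of the 4 groups held 3 libraries. Nfil3 encodes E4BP4, a transcriptional repressor of the bZIP class known for binding D-box elements. The promoter that drives the transgene is not given in the sources used here. Titles number the livers within a group, but no label states that they came from different mice, and the spread behind each p-value may therefore be technical.

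Libraries held 16035121 to 23981021 total gene reads, and the 38 genes took 2.42% to 3.30% of them. Levels per library are CPM values (reads scaled to library size, after TMM), and fold changes are log2 values with their standard error (SE). Calls are genes with an adjusted p below 0.05 in edgeR's quasi-likelihood test with Benjamini-Hochberg adjustment over 15244 tested genes, and all 38 genes were tested. Nfil3 was 24.6 to 48.8 CPM in WT libraries and 62.6 to 93.9 CPM in TG libraries, with no overlap. Replicate 2 of TG at ZT2 and replicate 3 of TG at ZT14 stood apart on the second principal component, at -30.8 and -33.2, while the other 10 libraries lay above 0 and up to 12.1. The 8 hepatocyte markers summed to 68566 to 85862 CPM and the 5 megakaryocyte and platelet markers to 3.25 to 5.17 CPM. In these bulk samples, fewer cells of a type and less RNA per cell cannot be told apart.

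The upstream sequences of Serpinf2, Mbl1 and F5 are shown because the first 2 had the largest log2 fold changes between times over both genotypes, and exon and intron reads of F5 were called in opposite directions. They are RefSeq's bases before the annotated start in GRCm38.p6, on the gene's strand, without bases inside the gene's deposited coordinates. Serpinf2 is chr11:75439592-75439751, minus strand, Mbl1 is chr14:41151206-41151455, plus strand, and F5 is chr1:164151585-164151834, plus strand. Capitals mark the nuclear receptor half-site AGGTCA, read on either strand.

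Serpinf2: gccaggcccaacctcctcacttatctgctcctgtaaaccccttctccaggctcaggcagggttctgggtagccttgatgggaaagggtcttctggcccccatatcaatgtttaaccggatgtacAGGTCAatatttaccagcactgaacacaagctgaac

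Mbl1: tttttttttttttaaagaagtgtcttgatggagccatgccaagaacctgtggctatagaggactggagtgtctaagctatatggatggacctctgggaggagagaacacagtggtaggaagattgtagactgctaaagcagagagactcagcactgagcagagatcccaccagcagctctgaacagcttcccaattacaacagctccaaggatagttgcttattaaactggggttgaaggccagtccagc

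F5: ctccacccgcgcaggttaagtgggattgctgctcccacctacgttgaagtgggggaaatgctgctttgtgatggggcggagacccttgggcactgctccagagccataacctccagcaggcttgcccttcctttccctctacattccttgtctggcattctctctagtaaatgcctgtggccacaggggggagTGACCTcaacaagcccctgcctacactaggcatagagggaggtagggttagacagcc

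RefSeq held 32 windows of 250 bases before annotated starts for 29 of the 38 genes. The Serpinf2 sequence printed above has only 160 bases, since those inside its deposited coordinates were left out. The D-box letters TTATGTAA or TTACGTAA, on either strand, were in 0 of these 32 windows and in 0.931% of 32851 windows of all genes. The E-box letters CACGTG were in 0 of the 32 and in 6.02% of all windows. AGGTCA was in 12 of the 32 windows, from 11 genes, among them Serpinf2, F5 and Tfpi2, and in 14.02% of all windows. TTGCNNAA, letters of C/EBP sites, was in 4 of the 32, those of C3, C9, F11 and F9, and in 9.56% of all windows. A match or its absence describes these letters in these windows only.

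Levels between genes are compared in deposited TPM, which is per length. C3, the protein on which all complement routes meet, was the highest at 2752 ± 793 TPM (SD, n = 12), followed by the adhesion protein vitronectin (Vtn) at 2456 ± 326 TPM and plasminogen (Plg) at 1758 ± 150 TPM. Kng1 (kininogen, 1064 TPM), Cfb (complement factor B, 895 TPM) and F2 (prothrombin, 750 TPM) came next. The lowest was Pros1 (protein S, a cofactor of activated protein C) at 37.0 TPM. Tfpi2, an inhibitor of plasmin and other serine proteases, was at 51.7 TPM. Within the anticoagulants, the levels of antithrombin (Serpinc1) and protein C (Proc) lay far above those of Pros1 and Tfpi2.

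**Figure D1:**
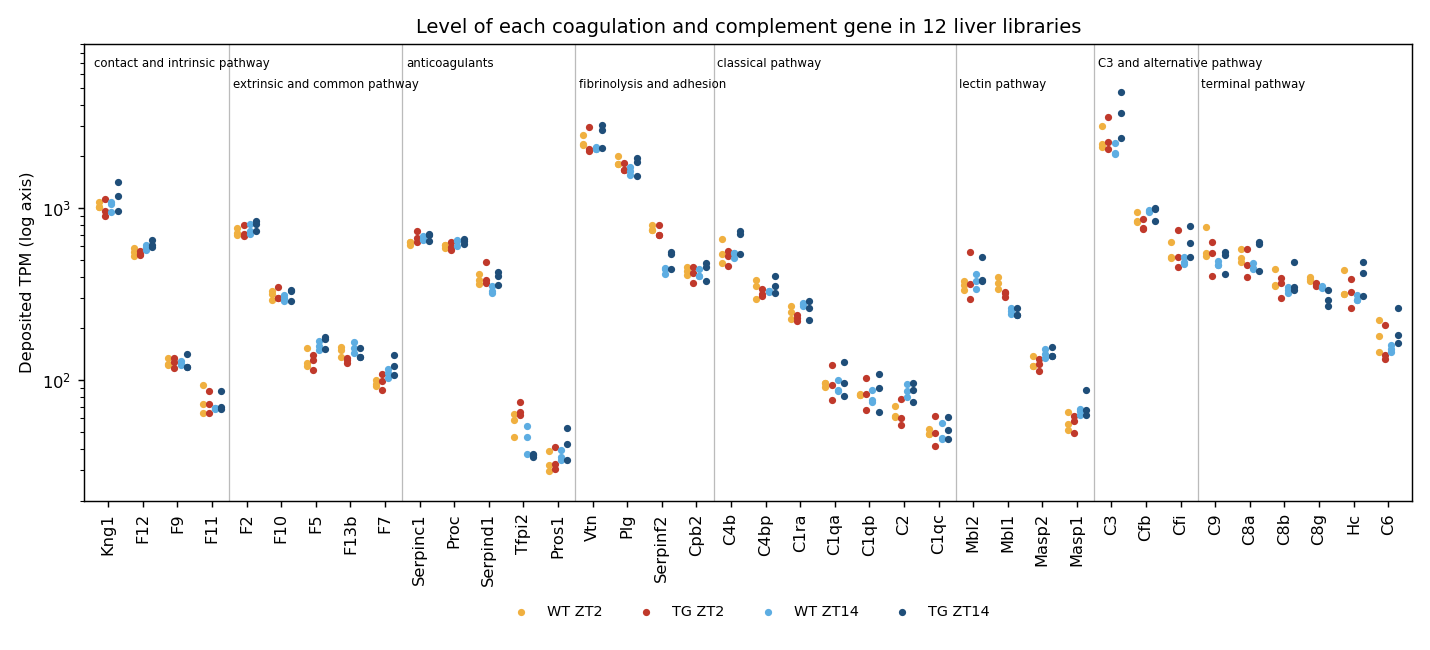
Deposited TPM (log axis) of the 38 coagulation and complement genes, grouped by role, with 1 point per library in the colour of its group (3 libraries each). C3, Vtn and Plg were the highest and Pros1 the lowest, at a mean of 37.0 TPM.

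Genes differed widely in how steady they were. The highest of the 12 libraries exceeded the lowest by 1.10-fold for Proc, Serpinc1 and F2 and by 1.11-fold for F12 (factor XII, which starts the contact pathway). The ratio was under 1.5 for 21 of the 38 genes. It was largest for C6, a terminal complement component, at 2.27-fold, then C3 at 2.08-fold, C9 at 2.01-fold and Serpinf2 at 1.95-fold. For C6 the spread lay within groups, with a pooled within-group SD of 0.41 on the log2 scale, while for Serpinf2 that SD was 0.08 and the spread lay between times.

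The comparison of ZT14 with ZT2 asks which of these genes differ between the early dark and the early light phase. In WT, 2 of the 38 genes passed the test, both lower at ZT14 (5.26% of members, against 9.17% of all genes tested in either direction and 4.32% lower). In TG, 3 of 38 passed, all lower (7.89%, against 12.2% of all genes in either direction and 5.52% lower). Over both genotypes together, 4 were higher and 6 lower (26.3% in either direction, against 22.5%, with 12.0% higher and 10.4% lower of all genes). The counts in either direction lay near or below the shares of all genes. DESeq2 called 5 members in WT (12.4% of all genes) and 6 in TG (14.6%). The median log2 fold change of the 38 genes was -0.13 in WT, 0.04 in TG and -0.06 over both, against 0.01, 0.01 and 0.00 for all genes.

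Serpinf2 (ENSMUSG00000038224, chromosome 11, 75431732 to 75439591, GRCm38) encodes α2-antiplasmin, the main inhibitor of plasmin. Its level was 820.5, 767 and 828 CPM in WT at ZT2 and 772, 777 and 719.9 CPM in TG at ZT2. At ZT14 it was 460.5, 424 and 426 CPM in WT and 528, 455 and 503 CPM in TG. All 6 libraries at ZT14 lay below all 6 at ZT2. The log2 fold change was -0.88 (SE 0.09, edgeR adjusted p = 9.30e-05) in WT and -0.61 (SE 0.09, adjusted p = 0.000980) in TG. Neither call was lost when any of the 12 libraries was left out. The difference between the genotypes in this change was 0.27 (SE 0.12), with an edgeR adjusted p of 0.830.

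Mbl1 (ENSMUSG00000037780, chromosome 14, 41151456 to 41158959) encodes mannose-binding lectin A, which recognises sugars on microbes and starts the lectin pathway. It was 178, 143 and 159 CPM in WT and 146, 121 and 135 CPM in TG at ZT2, and 102, 107 and 105 CPM in WT and 101, 102 and 92.4 CPM in TG at ZT14. Again no library at ZT14 reached the lowest at ZT2. Mbl1 fell by 0.60 on the log2 scale in WT (SE 0.10, edgeR adjusted p = 0.00180) and by 0.44 in TG (SE 0.10, adjusted p = 0.0101). The related Mbl2 (mannose-binding lectin C) was 156 to 257 CPM, with a log2 fold change over both genotypes of -0.01 (SE 0.12) and no call. Its 2 highest values, 257 and 231 CPM, were in the 2 TG libraries that stood apart.

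Tfpi2 (ENSMUSG00000029664, chromosome 6, 3962595 to 3988919) was called for time on total reads in TG and not in WT. In TG it was 61.0, 67.1 and 65.1 CPM at ZT2 and 37.8, 39.6 and 35.7 CPM at ZT14. In WT it was 57.3, 50.1 and 47.0 CPM at ZT2 and 43.0, 51.9 and 50.1 CPM at ZT14. The TG groups did not overlap, and the WT groups did. The log2 fold change was -0.77 in TG (SE 0.10, edgeR adjusted p = 0.000347) and -0.09 in WT (SE 0.09, adjusted p = 0.635). The difference between the genotypes was -0.68 (SE 0.13, unadjusted p = 0.000245 and adjusted p = 0.363 by edgeR), so it was not called. DESeq2 gave it an adjusted p of 0.0106, and this was the only one of the 38 genes that DESeq2 called for that difference (0.167% of all genes). The values above are of total reads, of which introns held 24.0% for Tfpi2. Exon reads alone in WT were 51.8, 44.8 and 35.7 CPM at ZT2 and 28.2, 37.8 and 35.0 CPM at ZT14. Intron reads in WT were higher at ZT14, as given below.

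**Figure D2:**
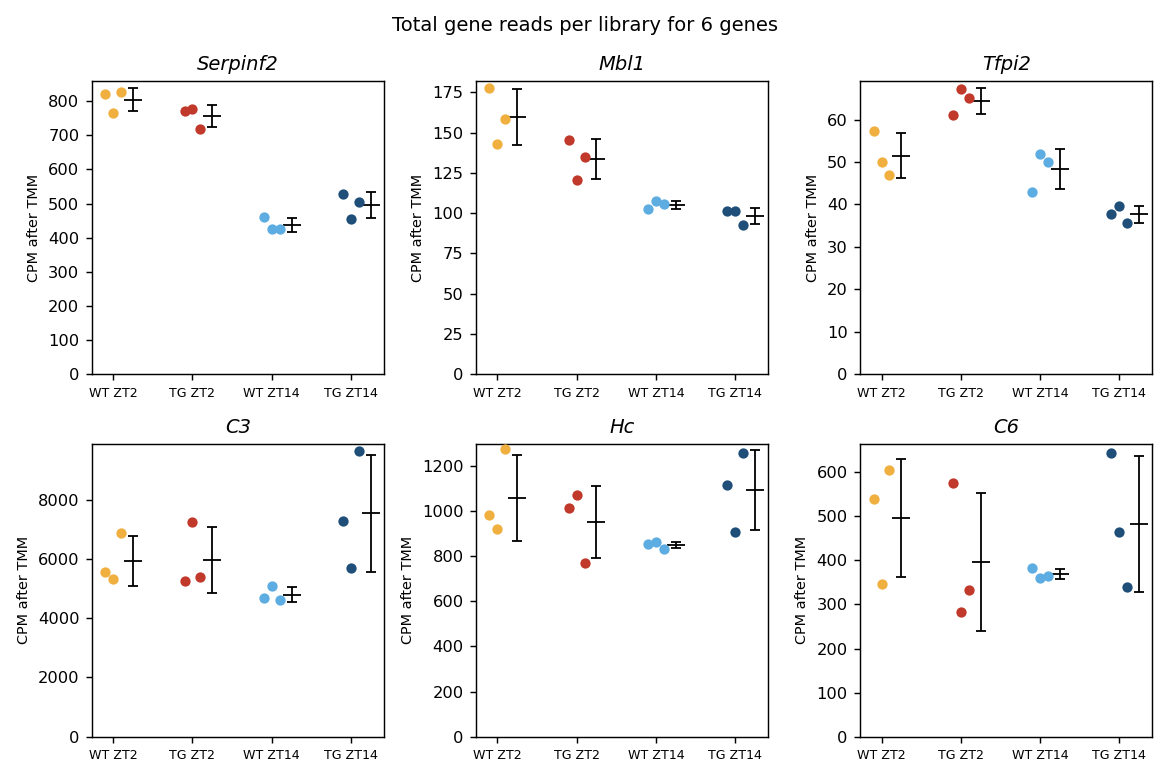
CPM after TMM of 6 genes in each library (points), with the mean and SD of the 3 libraries of each group (black). Serpinf2 and Mbl1 were lower in all libraries at ZT14 than at ZT2, Tfpi2 was lower at ZT14 in TG, and C3, Hc and C6 were close together in WT at ZT14 and spread in the other groups.

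The remaining calls came from both genotypes together and were small. C2 (a serine protease of the classical and lectin convertases) was 111 to 149.6 CPM in the 6 libraries at ZT2 and 148 to 184 CPM at ZT14, a log2 fold change of 0.34 (SE 0.08, edgeR adjusted p = 0.0105). C8g (the γ chain of C8) was 223 to 268 CPM at ZT2 and 164.5 to 232 CPM at ZT14, with -0.28 (SE 0.07, adjusted p = 0.0165). Both groups of times overlapped for C2 and for C8g. Both calls were kept whichever library was left out. Only 34.0% of the reads of C2 were uniquely mapped, and the readthrough gene Gm20547 overlaps it on the same strand. The cause of this low share was not tested.

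F11 (factor XI, which activates factor IX) was 74.1, 97.8 and 125.5 CPM in WT and 103, 117 and 121 CPM in TG at ZT2, and 82.4, 68.4 and 79.9 CPM in WT and 94.9, 80.6 and 73.4 CPM in TG at ZT14. Its values at ZT14 overlapped those of the lowest WT library at ZT2. Its log2 fold change over both genotypes was -0.41 (SE 0.12, edgeR adjusted p = 0.0226), and the adjusted p reached 0.0559 when TG at ZT2 replicate 3 or WT at ZT14 replicate 2 was left out. Serpind1 (heparin cofactor II, an inhibitor of thrombin) was 365 to 442 CPM at ZT2, 308 to 317 CPM in WT at ZT14 and 344 to 369.6 CPM in TG at ZT14, with -0.21 (SE 0.06, edgeR adjusted p = 0.0306). That call was lost in 7 of the 12 fits with 1 library left out. Only 28.4% of Serpind1 reads were uniquely mapped, and the gene lies within Pi4ka on the opposite strand.

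The remaining genes called higher at ZT14 barely passed. F5 (factor V, the cofactor of factor Xa) was 415 to 526 CPM at ZT2 and 492 to 535 CPM at ZT14, with 0.19 (SE 0.07, edgeR adjusted p = 0.0496). F7 (factor VII, which starts clotting with tissue factor) was 87.7 to 99.8 CPM at ZT2 and 93.7 to 118 CPM at ZT14, with 0.17 (SE 0.06, adjusted p = 0.0496). Masp2 (the protease of the lectin pathway that cuts C4 and C2) was 203 to 261 CPM at ZT2 and 241 to 275 CPM at ZT14, with 0.21 (SE 0.07, adjusted p = 0.0388). These calls were lost in 11, 10 and 10 of the 12 fits with 1 library left out. For F5 and Masp2 the times overlapped only through WT at ZT2 replicate 3, and for F7 through 3 libraries at ZT2. Masp2 overlaps Tardbp on the opposite strand, and its exon reads gave 0.10 (SE 0.06) with no call (edgeR adjusted p = 0.218).

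**Figure D3:**
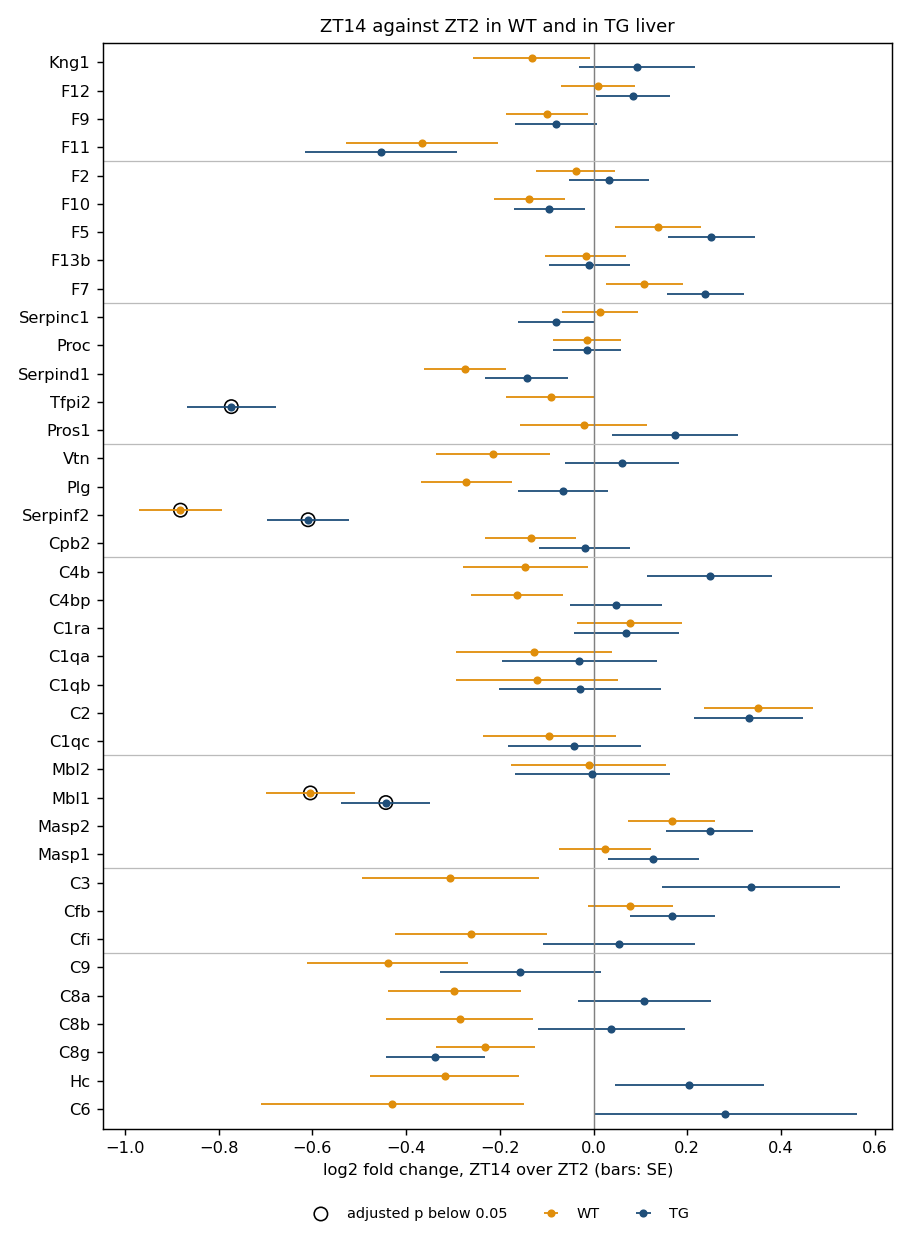
Log2 fold change of ZT14 over ZT2 for each of the 38 genes in WT (orange) and in TG (blue), with SE bars; lines part the role groups, and black rings mark an adjusted p below 0.05. Serpinf2 and Mbl1 were ringed in both genotypes and Tfpi2 in TG alone, and all 6 terminal pathway genes lay left of 0 in WT and 4 of them right of it in TG.

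By role, and beside the 22.5% of all genes called over both genotypes, the contact and intrinsic pathway had 1 of 4 genes called (F11, lower), the extrinsic and common pathway 2 of 5 (F5 and F7, higher) and the anticoagulants 2 of 5 (Serpind1 and Tfpi2, lower). Fibrinolysis and adhesion had 1 of 4 (Serpinf2, lower), and the classical pathway 1 of 7 (C2, higher). The lectin pathway had 1 higher (Masp2) and 1 lower (Mbl1) of 4, C3 and the alternative pathway 0 of 3, and the terminal pathway 1 of 6 (C8g, lower). For those 3 around C3 and the alternative pathway, 0 had an unadjusted p below 0.05 (34.2% of all genes) and DESeq2 called 0 as well (23.6% of all genes). The abundant one of the 2 rows deposited as Klkb1 was 252.5 to 372 CPM, with a log2 fold change of -0.25 (SE 0.07, edgeR adjusted p = 0.0195). That call was lost without WT at ZT14 replicate 3, and only 46.2% of the reads of the abundant row were uniquely mapped. The gene ID of the other row is named Gm45753 in GENCODE, and it overlaps the abundant row on the same strand. This other row was 1.98 to 8.11 CPM with no call.

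Other genes of the pathways were taken from 2 lists drawn up with earlier results of these data known. Of 28 tested coagulation and fibrinolysis genes outside the 38, 4 were called higher and 4 lower over both genotypes, against 12.0% and 10.4% of all genes. Fibrinogen, the substrate of thrombin, was among the latter. Its α chain gene Fga was 6855, 4008 and 4788 CPM in WT and 5120, 4406 and 3542 CPM in TG at ZT2, and 2172, 2171 and 2030 CPM in WT and 2784, 2138 and 2562 CPM in TG at ZT14. The times did not overlap. The log2 fold changes over both genotypes were -1.05 for Fga (SE 0.14, edgeR adjusted p = 0.000176), -0.91 for Fgb (SE 0.14, adjusted p = 0.000506) and -1.03 for Fgg (SE 0.14, adjusted p = 0.000251). Tfpi (tissue factor pathway inhibitor) also fell, by 0.44 (SE 0.09), while Lman1, which carries factors V and VIII out of the endoplasmic reticulum, rose by 0.51 (SE 0.07), with edgeR adjusted p of 0.00402 and 0.000325. Of 23 tested complement genes outside the 38, 3 were called lower (Cr1l, Cr2 and C1rl) and 0 higher, against the same shares of all genes. Cr2 was scarce, at 0.25 to 0.88 CPM over all libraries.

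Exon and intron reads were then taken apart, since intron reads come mostly from unspliced RNA and exon reads mostly from mature mRNA. Introns held 3.12% to 5.48% of the reads of the 38 genes, with 36.6% for Masp1, 30.8% for C6, 24.0% for Tfpi2 and 23.5% for F11 and 0.464% for Vtn. On exon reads, 2 genes were called higher and 5 lower over both genotypes (12.8% and 12.2% of all genes). On intron reads, 2 of 36 tested genes were called higher and 5 lower (11.3% of all genes in either direction). Serpinf2 fell on both, by 0.76 on exon reads and by 0.57 on intron reads, with edgeR adjusted p of 3.16e-06 and 0.00925. Mbl1 fell on exon reads by 0.55 (SE 0.06), and its intron reads gave -0.27 (SE 0.15, adjusted p = 0.288).

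F5 differed in opposite directions on exon and intron reads. Its exon reads were 419.7, 407 and 500.4 CPM in WT and 393, 423 and 419 CPM in TG at ZT2, and 513, 506 and 481 CPM in WT and 509.7, 491 and 521 CPM in TG at ZT14. Its intron reads were 16.8, 27.7 and 25.8 CPM in WT and 21.6, 27.0 and 26.5 CPM in TG at ZT2, and 11.1, 14.6 and 11.6 CPM in WT and 14.8, 10.6 and 13.9 CPM in TG at ZT14. All intron values at ZT14 lay below all at ZT2, while exon values at ZT14 lay above all at ZT2 except that of WT replicate 3. Exon reads rose by 0.23 (SE 0.07, edgeR adjusted p = 0.0242) and intron reads fell by 0.97 (SE 0.13, adjusted p = 0.000317) over both genotypes. The log2 ratio of exon to intron reads rose by 1.15 in WT (SE 0.17, limma adjusted p = 0.00423) and by 1.26 in TG (SE 0.17, adjusted p = 0.00160). Neither call of the ratio was lost when any of the 12 libraries was left out or with uniquely mapped intron reads. The fit of exon reads was not repeated with libraries left out, and the call of F5 on total reads was lost in most such fits. Gm16548, a lincRNA on the opposite strand within F5, was 7.20 to 11.8 CPM at ZT2 and 5.29 to 7.18 CPM at ZT14. Whether counting used strand is not given in the sources used here, so reads of Gm16548 and of the introns of F5 cannot be told apart.

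F11, called lower on total reads, was also called on intron reads and not on exon reads. Its introns gave 6.77, 26.8 and 34.0 CPM in WT and 36.4, 38.6 and 49.9 CPM in TG at ZT2, and 15.6, 6.19 and 14.9 CPM in WT and 17.9, 15.1 and 11.8 CPM in TG at ZT14. The lowest WT library at ZT2 lay among those of ZT14. The intron log2 fold change was -1.19 (SE 0.31, edgeR adjusted p = 0.0231), with adjusted p up to 0.0582 and no call without replicate 3 of either genotype at ZT2 or TG at ZT14 replicate 2, and the exon change was -0.17 (SE 0.09, adjusted p = 0.169). The log2 ratio of exon to intron reads differed by 0.99 (SE 0.29, limma adjusted p = 0.0568), which was not called.

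Across the 36 genes with a tested ratio of exon to intron reads, 3 were called higher and 3 lower over both genotypes (5.68% of all genes in either direction). Those higher were F5, Pros1 by 0.96 (SE 0.18, limma adjusted p = 0.00638) and Cfi (factor I, the protease that inactivates C3b) by 0.76 (SE 0.17, adjusted p = 0.0162). Without the 2 libraries that stood apart the ratio of Cfi was not called (limma adjusted p = 0.0585). Pros1 and Cfi were named after their values were seen. Introns of Pros1 gave 4.81 to 9.67 CPM at ZT2 and 2.42 to 6.28 CPM at ZT14, and those of Cfi 10.8 to 23.5 and 5.83 to 13.8 CPM. Exon reads of the same genes gave log2 fold changes of 0.14 (SE 0.10) and -0.10 (SE 0.11), with no call.

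The ratio fell for Tfpi2 by 1.08 (SE 0.21, limma adjusted p = 0.00737). Its exon reads were 35.7 to 53.0 CPM at ZT2 and 24.9 to 37.8 CPM at ZT14 and fell by 0.69 (SE 0.09, edgeR adjusted p = 0.000214). Its intron reads were 5.50, 5.25 and 11.3 CPM in WT at ZT2 and 14.1 to 15.1 CPM in WT at ZT14, while in TG they were 10.2 to 15.9 and 10.3 to 12.8 CPM. All 3 WT libraries at ZT14 lay above those at ZT2 on intron reads, with a log2 fold change of 0.94 (SE 0.24) that was not called (edgeR adjusted p = 0.0561). The ratio also fell for Masp2 by 0.44 (SE 0.12, adjusted p = 0.0496), a call lost in 11 of 12 fits with 1 library left out, and for Cfb by 0.82 (SE 0.13, adjusted p = 0.00211). Only 9.0% of Cfb reads were uniquely mapped and 0 of its uniquely mapped reads lay in introns, so its intron values rest on reads that also fit elsewhere.

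**Figure D4:**
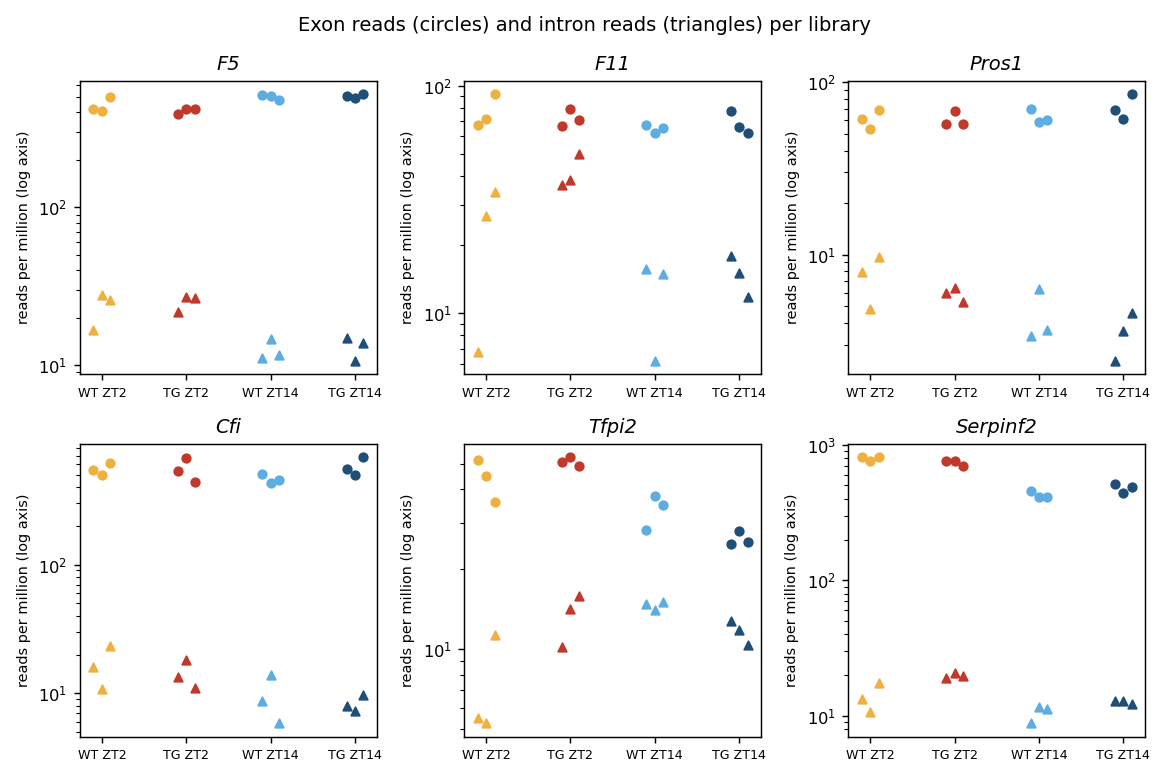
Exon reads (circles) and intron reads (triangles) in CPM (log axis) of 6 genes in each library, by group. Intron reads of F5 were lower in all libraries at ZT14 while its exon reads were not, those of Serpinf2 were lower at ZT14 in TG and overlapped between times in WT, and those of Tfpi2 were lowest in 2 WT libraries at ZT2.

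The comparison of TG with WT asks whether E4BP4 overexpression alters these genes. At ZT2, 0 of the 38 genes passed edgeR's test (0.0722% of all genes), and DESeq2 called 0 too (0.453% of all genes). At ZT14, 0 passed by either tool (0.0853% of all genes by edgeR and 0.362% by DESeq2), and likewise 0 over both times (0.144% and 0.492%). The numbers of genes with an unadjusted p below 0.05 were 2 at ZT2, 4 at ZT14 and 4 over both times (7.56%, 6.91% and 8.82% of all genes). The groups did not overlap for 7 of 38 genes at ZT2 and for 7 at ZT14 (18.4% at each time, against 12.1% and 12.4% of all genes). The median log2 fold change of the 38 genes was -0.06 at ZT2, with 29 lower in TG, and 0.06 at ZT14, with 26 higher. Medians of all genes were 0.00 and 0.01. Without the 2 libraries that stood apart, 34 were lower at ZT2 and 21 higher at ZT14, with medians of -0.12 and 0.01.

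The clearest separation was again that of Tfpi2. At ZT2 its 3 TG libraries lay above all WT libraries, with a log2 fold change of 0.32 (SE 0.10, edgeR adjusted p = 0.479). At ZT14 its 3 TG libraries lay below all WT libraries, with -0.36 (SE 0.10, adjusted p = 0.464). Of all genes tested, 0.551% separated in opposite directions at the 2 times. On exon reads alone TG and WT overlapped at ZT2.

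C3 (ENSMUSG00000024164, chromosome 17, 57203970 to 57228136) had the largest difference at ZT14. It was 4664, 5095 and 4622 CPM in WT and 7289, 5690 and 9628 CPM in TG at ZT14, and 5564, 5336 and 6876 CPM in WT and 5263, 7242 and 5403 CPM in TG at ZT2. TG lay above WT at ZT14 without overlap, and the groups overlapped at ZT2. The log2 fold change at ZT14 was 0.65 (SE 0.19, unadjusted p = 0.00471 and adjusted p = 0.525 by edgeR). Without the 2 libraries that stood apart it was 0.43, with an adjusted p of 0.716. The highest C3 value, 9628 CPM, came from one of those 2. The 26 acute phase genes, none of them among the 38, had a median log2 fold change of 0.51 at ZT14 and -0.31 at ZT2, with 0 called at either time. Their summed level in WT at ZT14 was 9942 to 11698 CPM and in TG at ZT14 11994 to 18145 CPM. Their part in the value of C3 was not tested.

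F13b (the carrier subunit of factor XIII, which crosslinks fibrin) was 166, 178 and 176 CPM in WT and 163, 139 and 162 CPM in TG at ZT2, and 176, 175 and 163 CPM in WT and 162, 157 and 142 CPM in TG at ZT14. All TG libraries lay below all WT libraries of the same time. The log2 fold change over both times was -0.16 (SE 0.06, edgeR adjusted p = 0.491), and -0.10 without the 2 libraries that stood apart. C8g had -0.20 (SE 0.07) and Mbl1 -0.18 (SE 0.07), with edgeR adjusted p of 0.491 and 0.498. Among the others, Cfb was 929 to 1183 CPM at ZT2 and 1056 to 1228 CPM at ZT14, C1ra (a protease of C1) 267 to 369 CPM over all libraries, and Vtn 1817 to 2449 CPM.

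**Figure D5:**
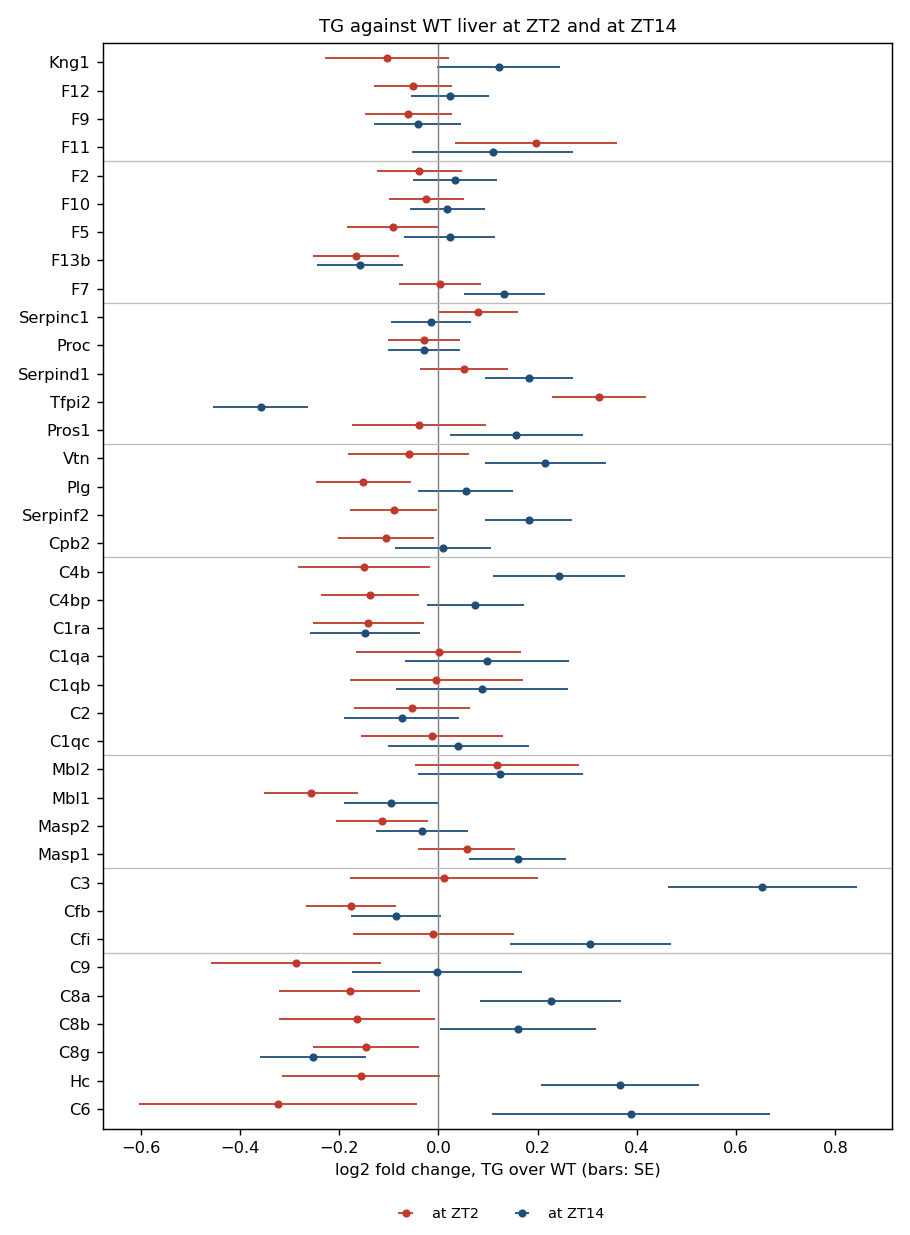
Log2 fold change of TG over WT for each of the 38 genes at ZT2 (red) and at ZT14 (blue), with SE bars; lines part the role groups. No gene passed an adjusted p of 0.05, most points lay within 0.4 of 0, and C3 at ZT14 was the farthest at 0.65.

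The change with time was next compared between genotypes. The change from ZT2 to ZT14 in TG minus that in WT was called for 0 of 38 genes by edgeR (0.00656% of all genes), with 4 at an unadjusted p below 0.05 (5.98% of all genes). It was positive for 32 of the 38 genes, with a median of 0.11 that ranged from 0.08 to 0.17 as single libraries were left out, against 50.4% positive and a median of 0.00 for all genes. The genes share libraries, so this count is a description of these 12 samples. Without the 2 libraries that stood apart 34 of 38 were positive.

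The 6 terminal pathway genes, which form the membrane attack complex, had the largest median of the role groups, 0.36. In WT all 6 had negative log2 fold changes from ZT2 to ZT14, with a median of -0.31. For 5 of the 6 the times did not overlap, each lower at ZT14. In either direction, the times in WT did not overlap for 13 of the 38 genes (34.2%, against 29.3% of all genes). These shares count both directions, so they are no like measure for 5 genes that were all lower. In TG 4 of the 6 were positive, with a median of 0.07. None of the 6 passed in WT or in TG. Hc (complement C5, named after its values were seen) was 979.8, 918 and 1271 CPM in WT at ZT2 and 851, 861 and 832 CPM in WT at ZT14. It was 1010, 1068 and 767.5 CPM in TG at ZT2 and 1114, 906 and 1257 CPM in TG at ZT14. Its values were close together in WT at ZT14 and overlapped in TG. The difference between genotypes was 0.52 (SE 0.22, edgeR adjusted p = 0.801). For C6, C8a and C8b it was 0.71 (SE 0.40), 0.41 (SE 0.20) and 0.32 (SE 0.22), for C9 0.28 (SE 0.24) and for C8g -0.11 (SE 0.15). WT at ZT2 replicate 3 held the highest WT value of Hc, C6, C8a, C8b and C9, and without it the median of the 6 genes in WT was -0.23.

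C3 and C4b (the thioester protein of the classical convertase) had differences of 0.64 (SE 0.27) and 0.39 (SE 0.19), with no call. The acute phase genes showed a median difference of 0.66, with 24 of 26 positive. Their part in the values of the terminal genes was not tested.

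The 3 chains of C1q, which liver macrophages are known to make, varied together. C1qa was 33.6 to 52.5 CPM, C1qb 28.8 to 47.8 CPM and C1qc 34.7 to 49.3 CPM, with no call in any comparison. The lowest values of C1qa were 33.6 CPM in TG at ZT14 replicate 1 and 34.6 CPM in TG at ZT2 replicate 3. The 10 Kupffer cell and macrophage markers were lowest in the same libraries, at 324 and 329 CPM in sum against up to 445 CPM. Both C1qa and this sum were highest in the 2 TG libraries that stood apart, at 52.2 and 52.5 CPM for C1qa. Of the 10 markers, 0 were called for genotype or time by edgeR, and 0 had an unadjusted p below 0.05.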

How the data were processed

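Reads were counted by the authors, and the deposited counts per gene (total, exon, intron and uniquely mapped reads) were used as they stand, per the file headers. Total gene reads equalled exon plus intron reads in every row. Deposited TPM values describe levels between genes, and deposited RPKM values were not used. The builds mm10 and GRCm38 come from the submitters' processing notes; the aligner is not given in the sources used here.

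Genes were kept by filterByExpr (minimum count 10, minimum total 15) in edgeR 4.0.16 under R 4.3.3, scaled by TMM and fitted in 1 quasi-likelihood model of 4 groups. Total reads set the depth of each library, 16035121 to 23981021, which limits the precision for scarce genes. The log2 ratio of exon to intron reads, with a pseudocount of 0.5 reads, was tested with limma 3.58.1. Both this ratio and the separate test of intron reads were chosen after seeing the data. The edgeR fit of total reads was tested on simulated data for genotype over both times and for time over both genotypes. The ratio was tested so for time over both genotypes. The other comparisons and the other fits were not tested on simulated data. Libraries of a group differed by more than counting noise, so no library was taken as a copy of another; technical repeats cannot be told from different mice by this.

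The members and gene lists were chosen with earlier results of these data known. Genes named by rule, with values per library or their range, are those called in any comparison of total reads. In each role group they also include the gene with the smallest p for genotype and for time. Other genes were named after their values were seen. The alternatives tried were DESeq2 1.42.0, RLE size factors, scaling by library size, no filter beyond 1 read, uniquely mapped reads, exon or intron reads alone, fits to the 6 samples of a comparison, a replicate block, and fits without single libraries or without the 2 that stood apart.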

Additional observations from a re-analysis of the deposited data

Results flagged for a closer look

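On total reads, Tfpi2 in TG lay on opposite sides of WT at the 2 times, with no call at either. All 3 TG libraries lay above all WT libraries at ZT2 and below them at ZT14, and the change from ZT2 to ZT14 in TG minus that in WT was -0.68 on the log2 scale (SE 0.13). The adjusted p was 0.363 with edgeR and 0.0106 with DESeq2. Without the 2 libraries that stood apart the value was -0.62, with an edgeR adjusted p of 0.646. Exon reads alone did not separate the genotypes at ZT2, with 50.8, 53.0 and 49.2 CPM in TG and 51.8, 44.8 and 35.7 CPM in WT. At ZT14 they did, with 24.9, 27.8 and 25.4 CPM in TG and 28.2, 37.8 and 35.0 CPM in WT.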

How the results depend on the processing

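No coagulation or complement gene was called for genotype under any alternative run. For time in WT, 2 calls became 5 with DESeq2 and ranged from 2 to 3 with 1 library left out. For time in TG, 3 calls became 6 with DESeq2 (3 to 4 with 1 library left out). Over both genotypes, 10 calls became 6 with no filter beyond 1 read and 6 without both libraries that stood apart, and ranged from 5 to 9 with 1 library left out, the lowest without WT at ZT14 replicate 2. For the time difference between genotypes, 0 became 1 with DESeq2. Calls of Serpinf2, Mbl1, Tfpi2, C2 and C8g over both genotypes were kept in every leave-one-out fit, and those of F5, F7, Masp2, Serpind1 and F11 were not.

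On intron reads alone the sign reversed for C3 at ZT14 (-0.60) and over both times (-0.86), for F13b over both times (0.38), for F5 (-0.97), C8g (0.11), Tfpi2 (0.36) and Serpind1 (0.14) between times over both genotypes, and for Serpinf2 in the time difference between genotypes (-0.20). Intron reads of C3 varied widely within groups. At ZT14 they were 46.3, 196 and 16.8 CPM in WT and 28.9, 41.5 and 93.1 CPM in TG. Serpind1 had 0 uniquely mapped intron reads in all 12 libraries, so its value rests on reads that also map elsewhere. The cause was not tested. With library size alone the median of all genes on intron reads shifted to 0.23, and 6 genes of the 38 were called on intron reads instead of 7.

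Of all genes, DESeq2 called 57, 53 and 75 for genotype at ZT2, at ZT14 and over both times, where edgeR called 11, 13 and 22. No label says whether replicate numbers pair the libraries. Of 18 same-numbered pairs 2 had a correlation of deviations over 0.1, with a range of -0.25 to 0.15. Pairs with different numbers were not compared, so this cannot decide whether libraries were paired. With the replicate block, 2 genes of the 38 were called for time in WT, 3 in TG and 7 over both genotypes. Depth limits genes such as Pros1, whose introns gave few reads.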
